A study of Mus musculus with 6 samples.

Results

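The receptor for interleukin 4 (IL-4), the kinases bound to it, an adaptor that it recruits and 2 genes known to be induced by IL-4 were followed in activated mouse B cells with and without the aryl hydrocarbon receptor (AhR), a ligand-activated transcription factor. The 9 members were taken by gene symbol from the 23420 rows of the count table: the receptor chains *Il4ra*, *Il2rg* and *Il13ra1*, the Janus kinases *Jak1*, *Jak3* and *Tyk2*, the adaptor gene *Irs2*, and the IL-4-induced genes *Fcer2a* and *Il4i1*. B cells were isolated from the spleen by negative selection from Ahr+/+ mice (3 libraries) and Ahr-/- mice (3 libraries), both on a C57Bl/6J background. The Ahr-/- mice lack the receptor in every cell of the body, not in B cells alone. Cells of both genotypes were cultured for 8 h with anti-IgM at 10 μg/ml, which engages the B cell receptor, and IL-4 at 20 ng/ml. The medium held 5% fetal calf serum. For the final 4 h the cells also received 250 nM of FICZ, a high-affinity AhR ligand. Every library had thus received IL-4, anti-IgM and FICZ, so the comparison answers how the genotypes differed under IL-4, and the response to IL-4 itself was not measured.

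IL-4 is bound by the IL-4 receptor α chain. In the type I receptor, the usual form on lymphocytes, this chain pairs with the common γ chain, which is shared with the receptors for IL-2, IL-7, IL-9, IL-15 and IL-21. In the type II receptor, the usual form on non-haematopoietic and myeloid cells, it pairs with the IL-13 receptor α1 chain. JAK1 binds the α chain, JAK3 the γ chain and TYK2 the IL-13 receptor α1 chain. The kinases phosphorylate the α chain, which recruits the transcription factor STAT6 and the adaptor proteins IRS1 and IRS2, the latter leading to phosphoinositide 3-kinase. In B cells IL-4 is known for raising CD23 and MHC class II and for directing class switching to IgE and IgG1.

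The libraries held between 22095096 and 53648787 counts assigned to genes, the Ahr-/- replicate 1 being the shallowest and the Ahr-/- replicate 2 the deepest. The targeted gene *Ahr* stood at 12681, 12892 and 13953 normalised counts in Ahr+/+ and at 8856, 8949 and 9717 in Ahr-/- cells (log2 fold change -0.52, SE 0.047, edgeR adjusted p = 7.1e-06). Its count covers the whole gene and does not separate deleted from retained exons. Of the 8 general B cell markers on the list, 5 were higher in Ahr-/- libraries and none was lower, and their summed level was 89205 to 93533 in Ahr+/+ and 104196 to 109371 normalised counts in Ahr-/- libraries. The median log2 fold change of these 8 markers was 0.26. Of the 7 T cell markers, *Cd3e* was lower in Ahr-/- libraries (33.9 ± 9.88 against 14.1 ± 0.708 normalised counts, log2 fold change -1.26, edgeR adjusted p = 0.0090), and the other 6 were not called, with log2 fold changes from -0.84 to 0.35. Of the 7 plasmacytoid dendritic cell markers, 5 were higher in Ahr-/- libraries, each without overlap between the genotypes. Their log2 fold changes were 2.23 for *Siglech*, 2.19 for *Klk1*, 1.47 for *Runx2*, 1.33 for *Cox6a2* and 0.51 for *Ccr9*. The 2 not called were the most abundant: *Bst2* (means of 2127 in Ahr+/+ and 2498 in Ahr-/- libraries) and *Irf7* (1128 and 1028). The sum of all 7 was 3172 to 4064 normalised counts in Ahr+/+ and 3478 to 5487 in Ahr-/- libraries. Without *Bst2* it was 1242 to 1726 and 1503 to 2489, so that the sums overlapped either way. Of the 4 plasma cell markers in the table, *Igj* and *Prdm1* were lower, and the sums of 6901 to 12508 in Ahr+/+ and 4589 to 5965 in Ahr-/- libraries did not overlap, while without *Igj* they did (366 to 520 and 311 to 388). Of the 5 natural killer cell markers, 2 were higher, and their sums were 172 to 266 in Ahr+/+ and 270 to 406 in Ahr-/- libraries. Of the mast cell and basophil markers 1 of 6 was higher, and of the neutrophil markers none of 5 was called by edgeR, with 1 higher at an unadjusted p under 0.05. The part of these cells in the results on the members was not tested. In these bulk samples, fewer cells of a type and less RNA per cell cannot be told apart.

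Of the 9 members, 9 passed the minimum of 10 counts over the libraries and 3 passed the test at an adjusted p of 0.05, which is 33.3% of the members beside 17.9% of the 13682 genes tested. *Irs2* and *Fcer2a* were higher in Ahr-/- B cells, beside 9.79% of all genes called higher. *Jak1* was lower, beside 8.13% of all genes called lower. The genotypes did not overlap in 4 members (these 3 and *Il4i1*), which has to be read beside 33.5% of all genes. Of the 6213 genes with a mean of at least 1000 normalised counts, a cut chosen after the values were seen, 21.3% were called. The median log2 fold change of the members was 0.08 and their median absolute log2 fold change was 0.31, against 0.00 and 0.11 over all genes tested.

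**Figure D1:**
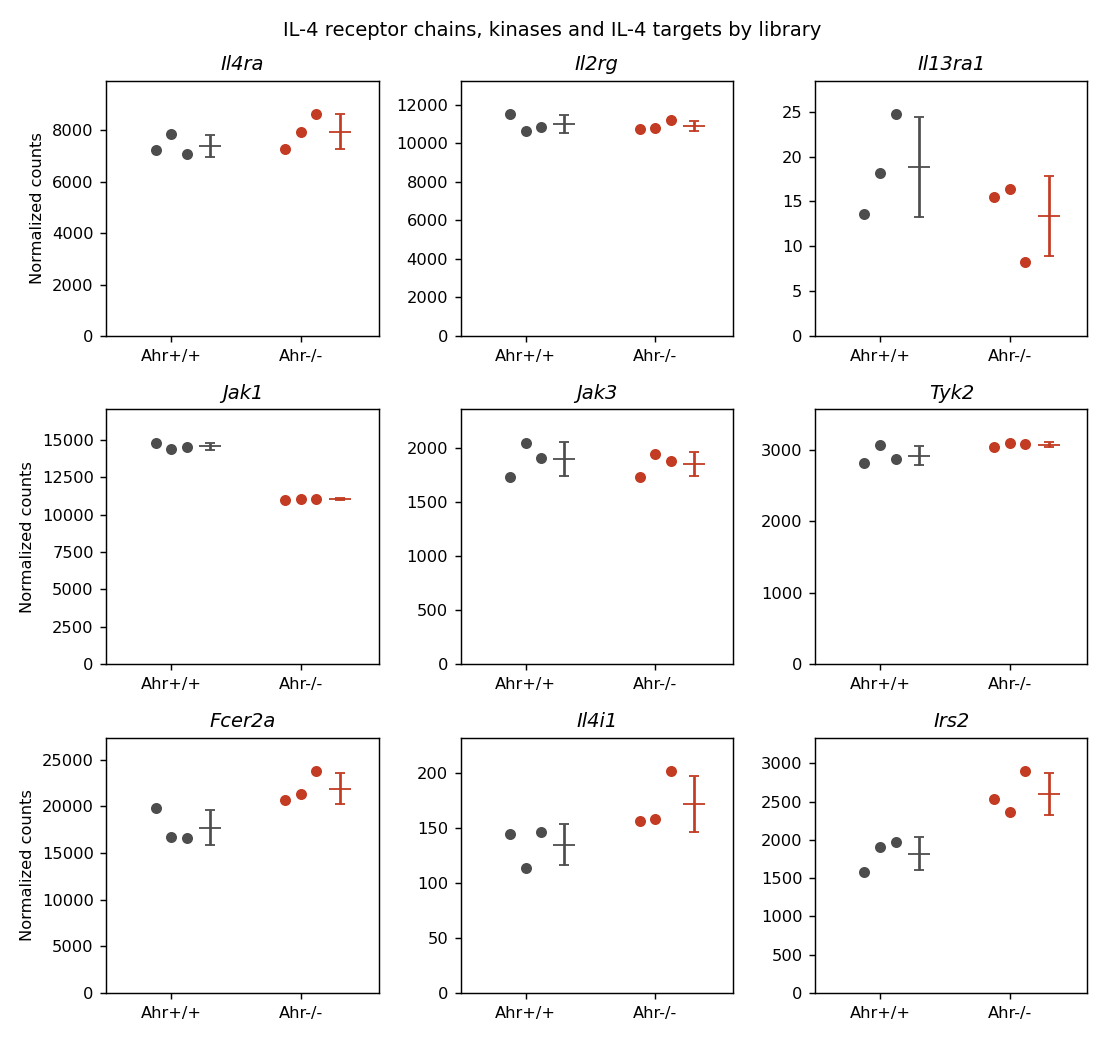
Normalised read counts of the 9 members (y axes, each starting at 0) in the 3 Ahr+/+ and 3 Ahr-/- libraries. Points are libraries, and bars give the mean and the SD of each genotype. The Ahr-/- points of *Irs2*, *Fcer2a* and *Il4i1* sit above all Ahr+/+ points, those of *Jak1* sit below, and the points of the other 5 members overlap.

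The promoters of the members are shown for the letters that STAT6 and the AhR are known to bind, because IL-4 and an AhR ligand were both in the culture. The sequences come from RefSeq (GRCm38.p6) and run from 250 bases before to 50 bases after a transcription start. All 9 members were matched, with 11 windows between them since *Fcer2a* has 3. TTCNNNNGAA, the spacing preferred by STAT6, TTCNNNGAA, the spacing shared by other STAT proteins, and GCGTG, the core of the dioxin response element bound by the AhR, were searched on both strands. Each line below gives 30 bases of a called member, 5′ to 3′ on the strand of the gene, with the matched letters in capitals, and *Il4ra* is added as the chain that binds IL-4.
Fcer2a (chr8:3691010-3691039, minus strand, TTCNNNNGAA): agagggtgaaTTCCCAAGAAgggccaggag
Irs2 (chr8:11009056-11009085, minus strand, GCGTG read on the other strand): ccccccgtgcctCACGCtcattggtccgtc
Jak1 (chr4:101265277-101265306, minus strand, GCGTG): gccgtacaagggGCGTGatcgttcagagtt
Il4ra (chr7:125552106-125552135, plus strand, GCGTG): acagctgcggacGCGTGgggtggggcatgc

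The match in *Fcer2a* began 168 bases before the start, in 1 of its 3 windows, and no other member held these letters. The same letters occurred in 7.0% of 32544 distinct RefSeq promoter windows of this length. TTCNNNGAA was found in 0 of the 11 windows and in 8.3% of all promoters. GCGTG was found in 5 of the 11 windows and in 32.6% of all promoter windows. These windows belong to 5 of the 9 members (*Il4ra*, *Il2rg*, *Jak1*, *Tyk2* and *Irs2*). It began 71 bases before the start in *Jak1*, 144 before in *Irs2* and 153 before in *Il4ra*, which held another match 37 bases after the start. Of these 5 genes, *Irs2* was higher, *Jak1* was lower and the other 3 were not called. A match describes letters in the window and no binding was measured here.

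Of the receptor chains, the transcript for the γ chain was abundant and nearly equal in the genotypes. *Il4ra*, the chain that binds IL-4 (chr7:125552120-125579474, plus strand, positions in GRCm38 throughout), had 7251, 7868 and 7072 normalised counts in Ahr+/+ and 7289, 7947 and 8630 in Ahr-/- libraries. The genotypes overlapped, and the Ahr-/- replicate 3 was the highest of the 6. The means were 7397 ± 418 and 7955 ± 671 (SD, n = 3 each), a log2 fold change of 0.11 (SE 0.059, 95% interval -0.02 to 0.23, edgeR adjusted p = 0.25). It was 0.04 without the Ahr-/- replicate 3 and 0.16 without the Ahr-/- replicate 1. In the annotation 9.5% of the *Il4ra* exon bases are shared with *Gm44876* on the opposite strand.

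*Il2rg*, encoding the common γ chain (chrX:101264378-101268255, minus strand), had 11518, 10628 and 10865 normalised counts in Ahr+/+ and 10741, 10795 and 11233 in Ahr-/- libraries. The Ahr-/- values lay inside the range of the Ahr+/+ values. The log2 fold change was -0.01 (SE 0.040, 95% interval -0.10 to 0.08, edgeR adjusted p = 0.89), the narrowest interval of the 3 receptor chains. In the annotation 30.5% of its exon bases are shared with *Gm20489* on the same strand, for which the count table has no row of that symbol.

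*Il13ra1*, the partner chain of the type II receptor (chrX:36112110-36171259, plus strand), was near the limit of detection. It had 14, 18 and 22 raw counts in Ahr+/+ and 9, 23 and 9 in Ahr-/- libraries, where 3 counts were the floor of a library. These are 13.6, 18.1 and 24.7 against 15.4, 16.4 and 8.21 normalised counts, and the genotypes overlapped. The log2 fold change was -0.49 (SE 0.36, 95% interval -1.27 to 0.29, edgeR adjusted p = 0.41), so that a fall or a rise of some size was not detectable at this depth. It was -0.21 without the Ahr-/- replicate 3, -0.26 without the Ahr+/+ replicate 3 and -0.76 without the Ahr-/- replicate 2. Of the 8 macrophage and monocyte markers, of cells that carry the type II receptor, *Cd14* was called higher and *Emr1* lower. They summed to between 1202 and 1499 normalised counts in Ahr+/+ and between 624 and 1120 in Ahr-/- libraries, and without *Emr1* (650 and 54.1 on average) to between 549 and 837 and between 588 and 1056. Their part in the *Il13ra1* values was not tested. Per kilobase of exon, the *Il2rg* level was on average 971-fold the *Il13ra1* level in Ahr+/+ and 1412-fold in Ahr-/- libraries. The log2 ratio of *Il13ra1* to *Il2rg* did not separate the genotypes (difference -0.51, exact two-sided permutation p = 0.4, smallest possible p 0.1, n = 3 each). This difference ranged from -0.75 to -0.17 when a library was left out.

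Of the kinases, *Jak1* fell and neither *Jak3* nor *Tyk2* passed the test. *Jak1*, the kinase of the α chain and of many other cytokine receptors (chr4:101152367-101265282, minus strand), had 14788, 14354 and 14514 normalised counts in Ahr+/+ and 10936, 11062 and 11039 in Ahr-/- libraries. All 3 Ahr-/- libraries lay below all Ahr+/+ libraries, and the libraries within a genotype were close. The mean fell by 24.3%, from 14552 ± 219 to 11012 ± 66.9 (SD, n = 3 each). The log2 fold change was -0.40 (SE 0.033, 95% interval -0.47 to -0.33, edgeR adjusted p = 2.6e-06). Measured against the median of the 8 B cell markers instead of all genes, a scale added after the data were seen, it was -0.66.

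*Jak3*, the kinase of the γ chain (chr8:71676296-71690575, plus strand), had 1737, 2049 and 1910 normalised counts in Ahr+/+ and 1737, 1947 and 1876 in Ahr-/- libraries. The genotypes overlapped almost fully. Its log2 fold change was -0.03 (SE 0.061, 95% interval -0.16 to 0.10, edgeR adjusted p = 0.81). *Tyk2*, the kinase of the IL-13 receptor α1 chain and of the type I interferon and IL-12 receptors (chr9:21104068-21131243, minus strand), had 2815, 3070 and 2873 normalised counts in Ahr+/+ and 3040, 3102 and 3083 in Ahr-/- libraries. The Ahr+/+ replicate 2 lay among the Ahr-/- values and the other two Ahr+/+ libraries lay below them. The log2 fold change of *Tyk2* was 0.08 (SE 0.041, 95% interval -0.01 to 0.17, edgeR adjusted p = 0.25). In the annotation 7.5% of the *Jak3* exon bases are shared with *Insl3* on the same strand, and 8.1% of those of *Tyk2* with a gene on the opposite strand.

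The ratio of the γ chain kinase to the α chain kinase within a library does not depend on the scaling between libraries. Per kilobase, *Jak3* stood at 0.176 ± 0.0171 of the *Jak1* level in Ahr+/+ and at 0.227 ± 0.0118 in Ahr-/- libraries (SD, n = 3 each). In 3 of 3 Ahr-/- libraries the ratio was above every Ahr+/+ library. The log2 difference was 0.37 and the exact two-sided permutation p of 0.1 was the smallest that 3 against 3 libraries can give. It was 1 of 4 ratios fixed for comparison.

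*Jak2*, the remaining Janus kinase, best known from the receptors of haematopoietic growth factors, fell by more than *Jak1*. It had 12614, 10986 and 11153 normalised counts in Ahr+/+ and 4116, 4267 and 4229 in Ahr-/- libraries, with no overlap (log2 fold change -1.46, SE 0.052, edgeR adjusted p = 1.2e-09). The summed level of the 4 Janus kinases was 5097 ± 166 per kilobase in Ahr+/+ and 3154 ± 49.5 in Ahr-/- libraries. *Jak1* made up 39.5% ± 0.752 of that sum in Ahr+/+ and 48.3% ± 0.469 in Ahr-/- libraries, so its share was higher where its level was lower. The share of *Tyk2* was 8.35% ± 0.595 and 14.2% ± 0.0766, and that of *Jak3* was 6.98% ± 0.774 and 11.0% ± 0.464 (SD, n = 3 each). The shares sum to 100% in each library, so the fall of one raises the others.

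**Figure D2:**
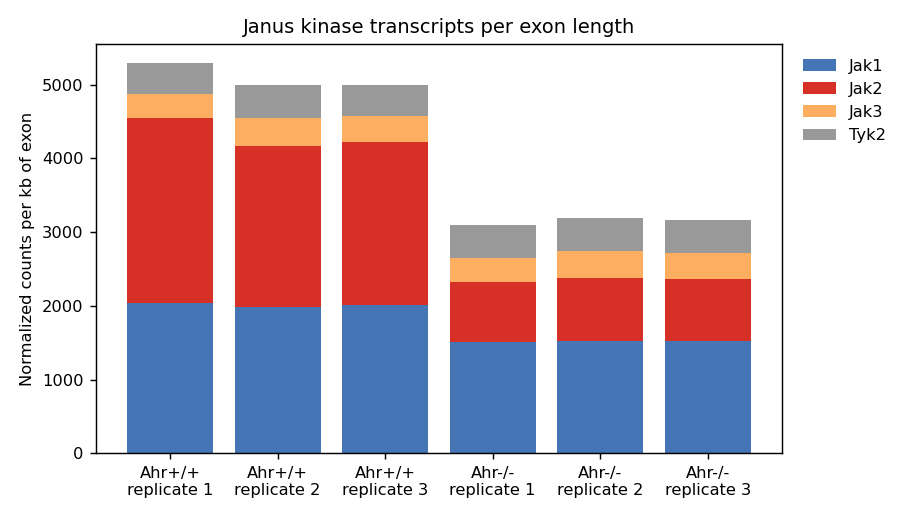
Levels of the 4 Janus kinases in normalised read counts per kilobase of exon (y axis) in the 3 Ahr+/+ and 3 Ahr-/- libraries. Each bar is a library, and the 4 kinases are stacked in it as coloured segments. *Jak1* and *Jak2* are lower in every Ahr-/- library, while the libraries overlap for *Jak3* and *Tyk2*.

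The adaptor gene *Irs2* and the IL-4-induced gene *Fcer2a* rose, and *Il4i1* had higher values in Ahr-/- libraries that did not pass the test over all genes. *Irs2*, the insulin receptor substrate that the phosphorylated α chain recruits (chr8:10984681-11008458, minus strand), had 1575, 1914 and 1971 normalised counts in Ahr+/+ and 2532, 2361 and 2898 in Ahr-/- libraries. All 3 Ahr-/- libraries lay above all Ahr+/+ libraries. The means were 1820 ± 214 and 2597 ± 274 (SD, n = 3 each), 42.7% higher in Ahr-/- cells, and the log2 fold change was 0.51 (SE 0.085, 95% interval 0.33 to 0.70, edgeR adjusted p = 9.6e-04). Leaving out a library in turn gave log2 fold changes of 0.42 to 0.58, and relative to the B cell markers the difference was 0.26.

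*Fcer2a* encodes CD23, the low-affinity receptor for IgE, which is induced by IL-4 and also marks follicular B cells (chr8:3681737-3694175, minus strand). It had 19846, 16718 and 16571 normalised counts in Ahr+/+ and 20640, 21277 and 23772 in Ahr-/- libraries. The genotypes did not overlap, although the Ahr+/+ replicate 1 lay nearer to the lowest Ahr-/- library than to the other Ahr+/+ libraries. The means were 17712 ± 1850 and 21896 ± 1655 (SD, n = 3 each), 23.6% higher in Ahr-/- cells, with a log2 fold change of 0.31 (SE 0.068, 95% interval 0.16 to 0.46, edgeR adjusted p = 0.0076).

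The follicular and marginal zone markers are given beside *Fcer2a*. The 4 other follicular markers in the table summed to between 13595 and 14965 normalised counts in Ahr+/+ and between 16057 and 17616 in Ahr-/- libraries, and 2 of them were called higher and 1 lower. The 8 marginal zone markers summed to between 38756 and 41779 in Ahr+/+ and between 35274 and 37426 in Ahr-/- libraries, with 3 higher and 2 lower. The direction of this sum rested on *Dtx1*, without which it was 27450.3 to 31739 in Ahr+/+ and 32355 to 34151 in Ahr-/- libraries. Without *Ccr7*, the follicular marker whose means differed most, the follicular sum was 5802 to 6439 and 6227 to 6620, and the genotypes overlapped. No marker on either list was at 0 in a library. Their part in the *Fcer2a* result was not tested. The ratio of *Fcer2a* to the B cell receptor component gene *Cd79a* did not separate the genotypes (log2 difference 0.051, exact two-sided permutation p = 0.8, smallest possible p 0.1), nor did its ratio to *Ms4a1*, encoding CD20 (log2 difference 0.054, exact permutation p = 0.6). Both markers were themselves called higher in Ahr-/- libraries. Relative to the median of the 8 B cell markers the *Fcer2a* difference was 0.049.

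*Il4i1*, the secreted L-amino acid oxidase named for its induction by IL-4 (chr7:44816387-44840809, plus strand), was expressed at a low level. It had 145, 114 and 146 normalised counts in Ahr+/+ and 156, 159 and 202 in Ahr-/- libraries. The genotypes did not overlap, but the highest Ahr+/+ and the lowest Ahr-/- library were close. The means were 135 ± 18.3 and 172 ± 25.5 (SD, n = 3 each), with a log2 fold change of 0.36 (SE 0.14, 95% interval 0.05 to 0.68, edgeR unadjusted p = 0.028, adjusted p = 0.11). Without the Ahr-/- replicate 3, the highest library, it was 0.23. The ratio of *Il4i1* to *Cd79a* had a log2 difference of 0.094 (exact two-sided permutation p = 0.8, smallest possible p 0.1). In the GENCODE annotation 83.9% of the exon bases of *Il4i1* are shared with *Tbc1d17* on the opposite strand, against 34 shared gene bases in RefSeq. *Tbc1d17* itself was not called (log2 fold change -0.11, edgeR adjusted p = 0.13). Whether the counting used strand is not given in the sources used here, so reads of the shared bases may have been left out or placed with either gene.

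Levels of different genes were compared per kilobase of summed exon length. In Ahr+/+ libraries *Fcer2a* stood highest with 5728 ± 598 normalised counts per kilobase, followed by *Il2rg* with 4610 ± 193, *Jak1* with 2014 ± 30.3 and *Il4ra* with 1232 ± 69.6. *Tyk2* followed with 425 ± 19.5, *Jak3* with 355 ± 29.3, *Irs2* with 288 ± 33.8, *Il4i1* with 33.0 ± 4.48 and *Il13ra1* with 5.07 ± 1.51 (SD, n = 3 each). No neighbours in this order overlapped between libraries. The γ chain transcript was thus above that of the α chain, and *Jak1* was above *Jak3* and *Tyk2*, in every library of this genotype.

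In Ahr-/- libraries the order was the same except that *Irs2* (411 ± 43.4 normalised counts per kilobase) stood above *Jak3* (346 ± 20.0). *Irs2* and *Tyk2* (448 ± 4.63), neighbours in this order, overlapped between libraries. *Fcer2a* reached 7082 ± 535 and *Il2rg* 4576 ± 113. *Jak1* with 1524 ± 9.26 stood nearer to *Il4ra* with 1325 ± 112 than in Ahr+/+ libraries, without overlap. The lowest levels were again those of *Il4i1* (42.2 ± 6.25) and *Il13ra1* (3.59 ± 1.20).

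**Figure D3:**
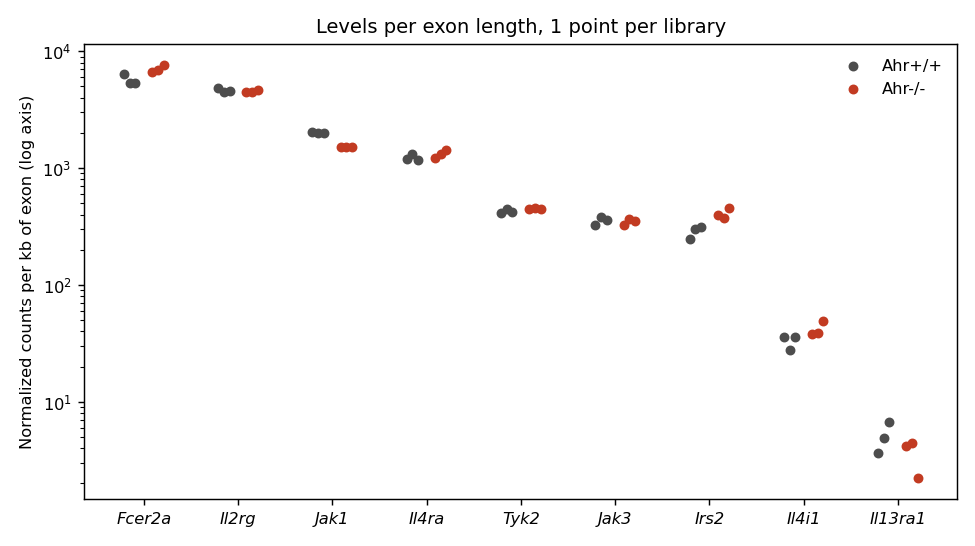
Levels of the 9 members in normalised read counts per kilobase of exon (log axis) in Ahr+/+ and Ahr-/- libraries. Each point is a library. The members span from *Fcer2a* (5728 in Ahr+/+ on average) to *Il13ra1* (5.07), and the order differs between genotypes only in *Irs2* and *Jak3*.

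Downstream of the receptor, *Irs1* rose with *Irs2*, while the phosphatase gene *Ptpn6* and the inhibitor gene *Socs5* fell. A further 26 genes of IL-4 receptor signalling were listed, of which 23 passed the count minimum. Of these 13 were called by edgeR, 6 higher and 7 lower in Ahr-/- cells, which is 56.5% beside 17.9% of all genes tested. Among genes with a mean of at least 1000 normalised counts the share called was 21.3%. The list was chosen with earlier results of these data known, so no conclusion is drawn from its share. *Irs1*, the related adaptor, had 13.9 ± 4.48 normalised counts in Ahr+/+ and 71.3 ± 18.2 in Ahr-/- libraries (log2 fold change 2.37, SE 0.29, edgeR adjusted p = 8.3e-05). Even so it stayed far below *Irs2* in counts.

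*Ptpn6*, encoding the phosphatase SHP-1 that restrains cytokine and antigen receptor signalling, had 37838 ± 1023 normalised counts in Ahr+/+ and 17698 ± 1200 in Ahr-/- libraries (log2 fold change -1.10, edgeR adjusted p = 5.4e-09). *Socs5*, a suppressor of cytokine signalling described to act on the IL-4 receptor, fell to a like degree, from 2169.5 ± 100 to 1015 ± 42.3 (log2 fold change -1.10, edgeR adjusted p = 1.0e-08). *Pik3cd*, the phosphoinositide 3-kinase catalytic subunit of leukocytes, fell by 0.83 on the log2 scale, from 8269 ± 483 to 4653 ± 212 (edgeR adjusted p = 1.5e-07). *Stat6*, the transcription factor of the pathway, was slightly lower, by -0.14 in log2 (edgeR adjusted p = 0.015), which is smaller than the change of *Jak1*. The members of this list that fell thus include transducers (*Jak2*, *Pik3cd*, *Pik3r1*, *Stat6*) and inhibitors (*Ptpn6*, *Socs5*, *Cish*), and those that rose include adaptors (*Irs1*, *Grb2*, *Gab2*, *Dok1*) and inhibitors (*Inpp5d*, *Cblb*). The ligand *Il4* had 0, 0 and 1 raw counts in Ahr+/+ and 0, 3 and 2 in Ahr-/- libraries, and *Il13* and *Il13ra2* had 0 in every library, below the minimum for a test.

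Other genes known to be induced by IL-4 in B cells went in both directions. Of 13 listed, 11 were in the table and tested, and 6 were called, which is 54.5% beside 17.9% of all genes. Of these 4 were higher and 2 lower, beside 9.79% and 8.13% of all genes. This list too was chosen with earlier results of these data known, so no conclusion is drawn from its share. *Cd86*, a costimulatory ligand, fell by 0.40 on the log2 scale (edgeR adjusted p = 4.2e-04).

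*Ccl22*, a chemokine made by activated B cells and dendritic cells, rose from 812 ± 32.0 to 1883.5 ± 461 (log2 fold change 1.21, edgeR adjusted p = 6.0e-05). *Bcl2l1*, which encodes the survival protein Bcl-xL, rose by a log2 fold change of 0.64 and *Batf*, a factor needed for class switching, by 0.33 (edgeR adjusted p = 1.4e-06 and 0.0033). Of the 7 conventional dendritic cell markers, 4 were higher and 1 lower, and they summed to 810 to 933 normalised counts in Ahr+/+ and 872 to 1057 in Ahr-/- libraries. Without *Itgax*, whose means differed most (148 and 302), the sum was 707 to 761 in Ahr+/+ and 597 to 695 in Ahr-/- libraries. That is the other direction, and most of this sum was *Zbtb46* (552 and 418 on average), the 1 marker called lower. The other markers called higher were low in counts, with means of 6.50 and 36.5 for *Cd209a*, 5.87 and 20.7 for *Clec9a* and 7.53 and 26.6 for *Clec10a*. The part of dendritic cells in the *Ccl22* result was not tested. The MHC class II genes *H2-Aa*, *H2-Ab1* and *H2-Eb1* had log2 fold changes of 0.06, 0.12 and 0.10 and were not called. The count of higher genes in this list was 7 without the Ahr-/- replicate 1.

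Of the other receptor chains that signal with the common γ chain, *Il21r*, the receptor for IL-21, fell from 9429 ± 533 to 6299 ± 379 normalised counts (log2 fold change -0.58, SE 0.052, edgeR adjusted p = 5.8e-06). It was the 1 called of 6 tested, which is 16.7% beside 17.9% of all genes. None was called higher by edgeR, and at an unadjusted edgeR p under 0.05 the counts were 1 higher and 1 lower. *Il2ra*, *Il2rb*, *Il7r*, *Il9r* and *Il15ra* were not called, with log2 fold changes between -0.36 and 0.25. Without the Ahr-/- replicate 3 there was 1 higher gene on this list, and without the Ahr+/+ replicate 1 there were 2 lower.

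**Figure D4:**
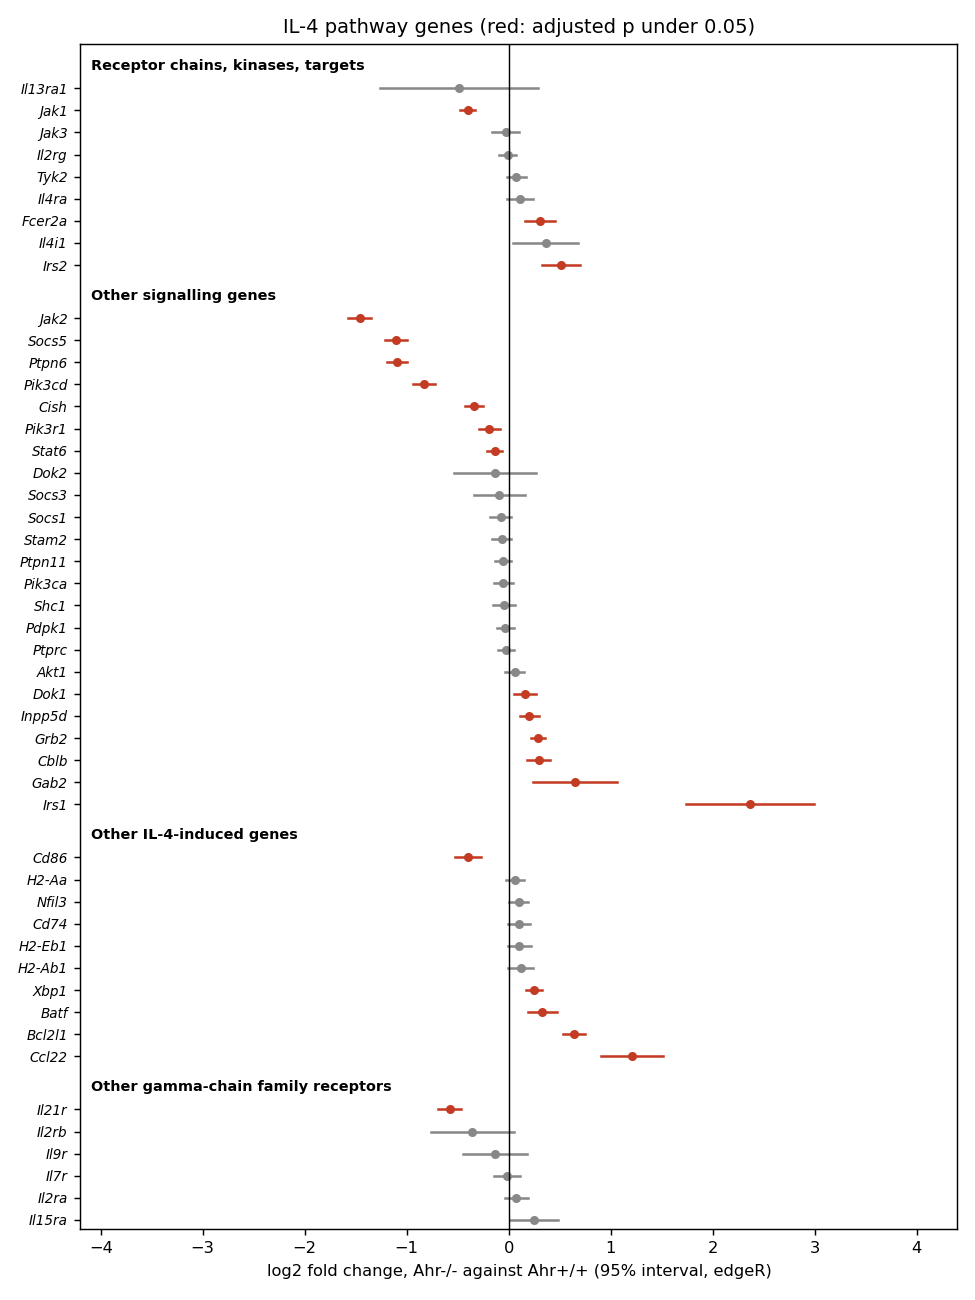
Log2 fold changes of Ahr-/- against Ahr+/+ libraries (x axis) with their 95% intervals from edgeR for the 9 members and the tested genes of the other 3 lists that are reported here (y axis). Red marks an adjusted p under 0.05 and grey the other genes. *Irs2*, *Fcer2a* and *Jak1* lie closer to 0 than *Irs1* (2.37), *Jak2* (-1.46) and *Ccl22* (1.21).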

How the data were processed

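RNA of 6 samples, 3 per genotype, was sequenced as stranded mRNA libraries (TruSeq, Illumina). Per the submitters' processing notes, TopHat2 (version 2), HTSeq and DESeq were used with mm10. The deposited values used here are raw counts per gene made by the authors. Their normalised counts and their own comparison (fold changes and p-values) were not used. Each library is a separate sample of its genotype.

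Counts were tested with edgeR 4.0.16 (R 4.3.3): TMM factors, a minimum of 10 counts summed over the 6 libraries (13682 genes), the quasi-likelihood test and Benjamini-Hochberg adjustment over all genes tested, with calls at an adjusted p under 0.05. The test was also run on simulated counts, and the outcome of that run is not reported here. Normalised counts are counts divided by the effective library size and scaled to the mean library. Levels per kilobase used the summed exon length of GENCODE M21 (GRCm38). Ratios were compared with exact two-sided permutation tests in SciPy 1.17.1. Total counts of 22095096 to 53648787 put the floor of 3 counts at 0.0559 to 0.136 CPM. Intervals and floors cover counting error, and edgeR's also the spread between libraries.

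The members and the gene lists were chosen with earlier results of these data known. Named are all members, *Ahr*, and from each other list the 5 called genes furthest from 0 in log2 fold change whose genotypes do not overlap and whose mean is at least 10 normalised counts in the higher genotype; the other genes named from the lists were chosen after their values were seen. For each of the 3 called members, the 3 genes most like it are named by correlation of log2 CPM. Alternatives were DESeq2 1.42.0, other scalings and filters, a replicate block, leaving out each library, the B cell marker scale, and marker sums without the gene whose means differ most, the last 2 chosen after seeing the data. A result on the IL-4-induced list and some ratios are not reported here.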

Additional observations from a re-analysis of the deposited data

How the results depend on the processing

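The members called were 2 higher and 1 lower in every alternative fit run, including DESeq2 and leaving out each library in turn. Of 260 recomputed values, 242 met the rule set for their kind. Fold changes had to keep their direction and side of the threshold, and ratios had to stay within the spread between replicates. On the B cell marker scale, fold changes had to keep their direction and stay within the SE. Counts of called genes had only to stay within a set fold of the main count, so that 4 beside 6 met the rule. The differences of *Il2rg* and *Jak3*, both near 0, changed sign: *Il2rg* was 0.015 with library size alone and -0.036 to 0.023 when a library was left out (above 0 without the Ahr+/+ replicate 1 or the Ahr-/- replicate 1), and *Jak3* was -0.090 to 0.031 when a library was left out (above 0 without the Ahr+/+ replicate 2 or the Ahr-/- replicate 1). Relative to the B cell markers, *Il4ra* (-0.15) and *Tyk2* (-0.18) changed sign, and the others were *Il13ra1* -0.75, *Il2rg* -0.27, *Jak1* -0.66, *Jak3* -0.29, *Fcer2a* 0.049, *Il4i1* 0.10 and *Irs2* 0.26. That scale subtracts 0.26 from each log2 fold change by construction. The *Fcer2a* ratio was 0.051 with *Cd79a* and 0.054 with *Ms4a1*. Of the other signalling genes, 4 to 6 were higher and 5 to 7 lower over the libraries left out, 4 and 7 with DESeq2, and 4 and 5 at an adjusted p of 0.01, beside 6 and 7. When a library was left out, 4 to 7 of the other IL-4-induced genes were higher, and of the γ chain family 0 to 1 were higher and 1 to 2 lower. *Il4ra* then ranged from 0.04 to 0.16, *Il13ra1* from -0.76 to -0.21 and *Il4i1* from 0.23 to 0.43, not called in any. For *Fcer2a* the adjusted p ranged from 4.9e-04 to 0.045 over the libraries left out and was 0.031 with DESeq2. Over all genes 1664 (without the Ahr-/- replicate 2) to 2639 (no filter) were called beside 2453, and 1473 at an adjusted p of 0.01. With library size alone 1621 of 2540 calls were higher, beside 1340 of 2453.

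The replicate numbers did not pair the samples: deviations from the group means of same-numbered libraries correlated at -0.06, 0.14 and -0.22 over 6841 genes. With the replicate number as a block, *Irs2* was at 0.51, *Fcer2a* at 0.31 (adjusted p = 0.012) and *Jak1* at -0.40, 2303 genes were called, and no call of a member changed. Depth limits *Il13ra1*, at 9 to 23 counts a library.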

Other observations

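The genes whose pattern over the 6 libraries was most like that of a called member were sought among 9691 genes with a mean of at least 100 normalised counts, by Pearson correlation of log2 CPM. The points share their libraries and the genotype difference, so the correlations are a description. For *Irs2* they were *Tdp1* (r = 0.997), *Sorl1* (0.988) and *Crtap* (0.987). For *Fcer2a* they were *Alg1* (0.990), *Stk38l* (0.990) and *1700021F05Rik* (0.989). For *Jak1* they were *Gadd45a*, *Kansl2* and *Rem2*, each at 1.00 after rounding. A correlation above 0.95 was reached by 455 genes for *Jak1*, 87 for *Irs2* and 56 for *Fcer2a*. Likeness of pattern was not likeness of size: *Jak1* differed by -0.40 in log2, *Kansl2* by -0.42, *Gadd45a* by -2.33 and *Rem2* by -3.75, while *Tdp1* differed by 0.07 and was not called by edgeR.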
